A study of Mus musculus with 37 samples.

Results

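The transcripts of 10 interferon-induced genes were followed in mouse oocytes and 2-cell embryos: the Ifi27 family members Ifi27, Ifi27l2a and Ifi27l2b, the membrane restriction factors Bst2, Ifitm1, Ifitm2 and Ifitm3, and Isg15, Irf7 and Oasl2. The genes were taken by symbol from 4 RNA-seq tables that together list 29296 genes. The table of ZH GV oocytes lists 9 of the 10 among 25053 genes, that of CabZ GV oocytes 7 among 19033, that of CabZ 2-cell embryos 9 among 24305, and that of the injected 2-cell embryos 4 among 15855. The set was chosen by the difference in Ifi27l2a level between ZH KO and ZH Het oocytes and filled with genes of the same response. The values of all members in the ZH comparison are therefore a description, printed with no p, and the ZH calls and intervals support nothing.

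The study asked what the Hira histone chaperone complex, which deposits the histone variant H3.3, contributes to oocyte competence. ZH denotes mice in which Zp3-Cre deletes exons 6 and 7 of Hira, and CabZ denotes mice in which Zp3-Cre deletes exon 6 of Cabin1, a subunit of the same complex. Zp3 drives Cre in growing oocytes, so the deletions arise in the oocyte itself. KO oocytes carry no intact copy of the floxed gene, whereas Het controls also carry Cre and retain a wild-type allele, and all mice were on a C57BL/6 background. RNA-seq covered germinal vesicle (GV) oocytes of ZH Het and ZH KO (n = 4 each), GV oocytes of CabZ Het and CabZ KO (n = 4 each) and 2-cell embryos of CabZ Het and CabZ KO (n = 4 each). In a further experiment, wild-type GV oocytes were injected with RNA for GFP (n = 4) or Zscan4d (labelled Zscan4 OE, n = 3), matured, activated without sperm and collected as 2-cell embryos. ATAC-seq, which marks open chromatin, covered CabZ Het and CabZ KO GV oocytes (n = 3 each). The methods describe pools of 10 oocytes per RNA-seq library while the labels speak of individual cells, and neither names the animals behind each library, so the p-values measure the spread between libraries. How the CabZ 2-cell embryos were conceived is not given in the sources used here.

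All 10 oocyte markers that were looked up had more than 3 reads in at least 1 library of every group. Libraries held between 5819313 and 21869853 reads on genes, and in the CabZ 2-cell comparison the KO libraries were the shallower set (5819313 to 6330242 against 7947418 to 8239521). Cabin1 was lower in CabZ KO than in CabZ Het GV oocytes (0.0242 ± 0.0167 against 0.119 ± 0.0312 FPKM, SD, n = 4 each) and 2-cell embryos (0.134 ± 0.0497 against 0.322 ± 0.0978 FPKM, SD, n = 4 each). Hira had at most 14 reads in any ZH library, too few to check the deletion. Cabin1 was also lower in ZH KO than in ZH Het oocytes (0.0864 ± 0.0175 against 0.286 ± 0.0410 FPKM, SD). Likewise, Hira was lower in CabZ KO than in CabZ Het 2-cell embryos (0.0434 ± 0.0196 against 0.233 ± 0.0348 FPKM, SD). A lower level was thus not particular to the deleted gene. Zscan4d, the injected gene, was not higher in the libraries labelled Zscan4 OE (70.3 to 84.3 FPKM) than in the GFP libraries (69.4 to 149 FPKM). The GFP libraries themselves averaged 117 FPKM of Zscan4d, against 2.57 FPKM in ZH Het GV oocytes. RNA left from the injection may not show at this stage, so these values cannot check the labels. The paper reports raised Zscan4 after injection by qRT-PCR, immunofluorescence and western blot, against uninjected oocytes. The direction of every comparison within that experiment rests on the labels.

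Interferons are secreted proteins that bind receptors on target cells and, through JAK kinases and STAT transcription factors, switch on a broad set of interferon-stimulated genes. STAT and IRF complexes reach these genes at a short promoter element, the interferon-stimulated response element (ISRE), and at the gamma-activated site (GAS). Fully grown oocytes are transcriptionally quiet and live on stored maternal RNA, and Ifitm3, known as Fragilis, is also a classic marker of early germ cells. Among the products, Irf7 amplifies interferon production, Isg15 is a ubiquitin-like modifier, Oasl2 belongs to the 2-5A synthetase family of RNA sensors, Bst2 (tetherin) holds budding virions at the cell surface, and the Ifitm proteins block the fusion of viral and cellular membranes. The Ifi27 family encodes small hydrophobic proteins.

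Promoter sequences from 250 bases before to 50 bases after the start site were at hand for 7 of the 10 members (RefSeq, GRCm38.p6). Ifi27, Ifi27l2a and Ifi27l2b were not among them. The ISRE core was searched as GAAANNGAAA on both strands, and 3.44% of 32851 promoters of this length held it. It was present in 4 of the 7 member promoters. The stretch from 150 bases before to 30 bases after the start site of these 4 genes is printed on the coding strand, 5′ to 3′, with the ISRE cores in capitals, because it holds the element through which the genes are known to answer interferon.
Bst2 (chr8:71537443-71537622, minus strand): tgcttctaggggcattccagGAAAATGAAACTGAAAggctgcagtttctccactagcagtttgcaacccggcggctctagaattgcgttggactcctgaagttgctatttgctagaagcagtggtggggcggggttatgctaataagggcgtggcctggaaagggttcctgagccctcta
Ifitm2 (chr7:140955932-140956111, minus strand): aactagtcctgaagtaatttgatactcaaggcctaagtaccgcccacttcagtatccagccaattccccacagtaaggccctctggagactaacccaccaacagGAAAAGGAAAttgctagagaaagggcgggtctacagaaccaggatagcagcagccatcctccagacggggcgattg
Ifitm3 (chr7:141010715-141010894, minus strand): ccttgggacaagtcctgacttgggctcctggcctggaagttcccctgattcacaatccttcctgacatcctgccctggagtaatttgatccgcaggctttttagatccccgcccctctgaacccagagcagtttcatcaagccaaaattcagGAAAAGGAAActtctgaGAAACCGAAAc
Isg15 (chr4:156200789-156200968, minus strand): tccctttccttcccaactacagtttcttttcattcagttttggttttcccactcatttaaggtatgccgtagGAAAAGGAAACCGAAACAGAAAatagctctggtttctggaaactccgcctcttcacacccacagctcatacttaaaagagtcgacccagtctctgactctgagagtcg

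Isg15 carried 3 ISRE cores that overlap each other, beginning at -78, -72 and -66 from the start site. Bst2 carried 2 overlapping cores at -130 and -124, Ifitm3 carried 2 separate cores just inside the transcript at 3 and 20, and Ifitm2 carried 1 core at -46. Ifitm1, Irf7 and Oasl2 held no match in this window, which says only that these letters were not found there. The GAS letters TTCNNNGAA, present in 8.3% of all promoters, were found in Bst2 (at -136) and Ifitm3 (at 14), and both matches overlap an ISRE core. The letters TATAAA, present in 13.6% of all promoters, were found in Irf7 at -29 and, on the reverse strand, in Ifitm2 at -175 and Oasl2 at -187. A match of letters is a description and not evidence that a factor binds.

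**Figure D1:**
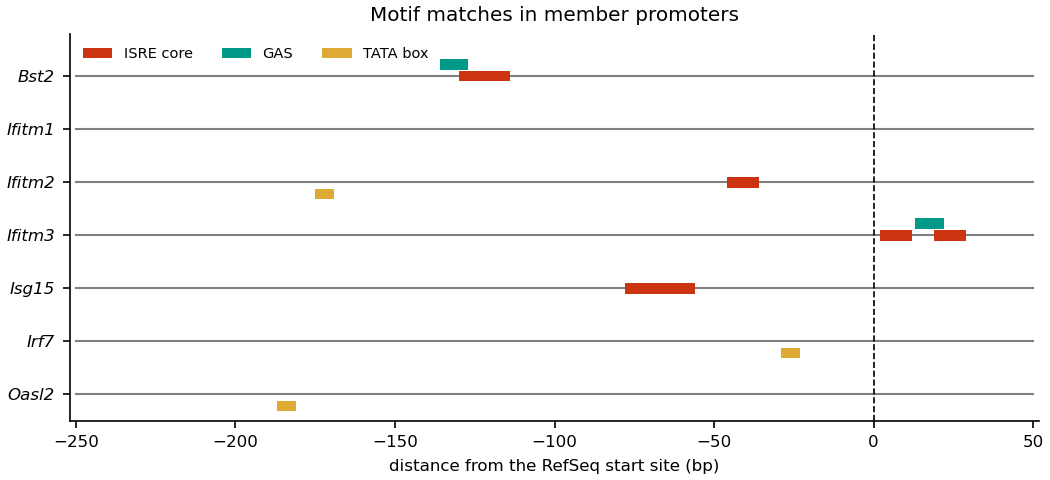
Positions of ISRE, GAS and TATA matches (coloured bars) in the 7 member promoters, with the distance from the RefSeq start site in bp on the x axis and a dashed line at the start. The ISRE cores of Isg15, Bst2 and Ifitm2 lie before the start site and both cores of Ifitm3 lie just after it.

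In ZH KO oocytes, Ifi27l2a, which had 14 reads or fewer in each control library, was the most abundant member, and Ifi27, Ifitm2, Irf7 and Oasl2 were also higher in every KO library than in every Het library, at far lower levels. Ifitm3 was lower in every KO library in FPKM, but not when scaled to reads on genes. Levels are given in FPKM over the whole gene span, introns included, as the tables hold them. A gene was called when its adjusted p was under 0.05 and its fold change was above 2. Only genes whose mean over the libraries reached 1 FPKM were tested. Of these, 17.7% were called in the ZH table, and 3 members passed that filter. Ifi27l2a met the rule for a call, as its choice fixed, and it passed the filter only through the KO group. Groups that did not overlap were seen in the higher direction for 5 members and in the lower direction for 1, where 21.8% and 13.3% of all listed genes did so. The median difference of the 9 listed members was 0.38 on the log2(FPKM + 1) scale, against 0.01 for all listed genes. These counts restate the contrast that chose the members, and nothing is read from them.

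The Ifi27 genes lie beside each other on chromosome 12 (Ifi27 at 103434211 to 103440239, plus strand, Ifi27l2a at 103442167 to 103443680 and Ifi27l2b at 103450898 to 103457223, both minus strand, GRCm38). The 4 ZH Het libraries held 0.428, 0.0514, 0.558 and 0.260 FPKM of Ifi27l2a, between 1 and 14 reads each, and the 4 ZH KO libraries held 112, 74.5, 52.1 and 108 FPKM, between 1046 and 2635 reads each. The ratio of the means was 267, and no KO library came near the Het range. Ifi27, its neighbour, was at 0.179, 0.0517, 0.230 and 0.147 FPKM in ZH Het and at 0.596, 0.413, 0.450 and 0.815 FPKM in ZH KO, 3.74-fold higher and without overlap. Ifi27l2b, the third gene of the cluster, had no read in any ZH Het library and 12, 0, 3 and 27 reads in the KO libraries, a mean at least 3.82-fold above a limit of 3 reads per Het library. Its groups overlapped, because a KO library was also at 0. How reads shared by these similar genes were counted is not given in the sources used here, so the Ifi27l2b reads cannot be told apart from reads of Ifi27l2a, and the same holds among the Ifitm genes.

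Irf7, the transcription factor of the set (chromosome 7, 141262706 to 141266481, minus strand), had no read in the 4 ZH Het libraries and stood at 0.594, 0.165, 0.299 and 0.194 FPKM in ZH KO (10 to 35 reads), at least 6.08-fold above a limit of 3 reads per Het library. Oasl2 stood at 0.0470, 0.0458, 0.0158 and 0.00965 FPKM in ZH Het (3 to 10 reads) and at 0.147, 0.240, 0.172 and 0.326 FPKM in ZH KO (35 to 68 reads), 7.49-fold higher. Both genes were thus separated between the genotypes, at read numbers far below those of Ifi27l2a.

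The membrane factors did not move as a set in ZH oocytes. Ifitm2 was at 0.0625, 0.338, 0 and 0.171 FPKM in ZH Het and at 0.836, 0.433, 0.589 and 0.637 FPKM in ZH KO. These are 1, 5, 0 and 4 reads against 8 to 15 reads, and no fold is given because the Het mean lay under the limit of 3 reads per library. Bst2 was at 1.71, 1.39, 1.66 and 2.61 FPKM in ZH Het and at 5.13, 4.28, 1.67 and 4.01 FPKM in ZH KO, so that 3 KO libraries lay above all Het libraries and KO 3 lay among them. Ifitm3 was at 49.5, 43.7, 38.6 and 45.3 FPKM in ZH Het and at 38.4, 21.8, 35.0 and 33.1 FPKM in ZH KO, with the highest KO library just under the lowest Het library. Ifitm1 (chromosome 7, 140967221 to 140969825, plus strand) had at most 5 reads in any ZH library, and Isg15 (chromosome 4, 156199424 to 156200818, minus strand) is not listed in this table.

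Ifitm3 was the highest member wherever interferon-induced genes were measured in control oocytes. Per kilobase of exon, which allows genes to be compared, ZH Het oocytes held on average 104 CPM (reads scaled to the same library total) of Ifitm3, 8.77 of Bst2, 1.42 of Ifi27l2a and 0.838 of Ifi27. CabZ Het oocytes held 142 of Ifitm3 and 14.7 of Bst2, and the other listed members were at 0.620 or less. In ZH KO oocytes Ifi27l2a reached 424 on this scale and stood above Ifitm3, at 83.7.

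**Figure D2:**
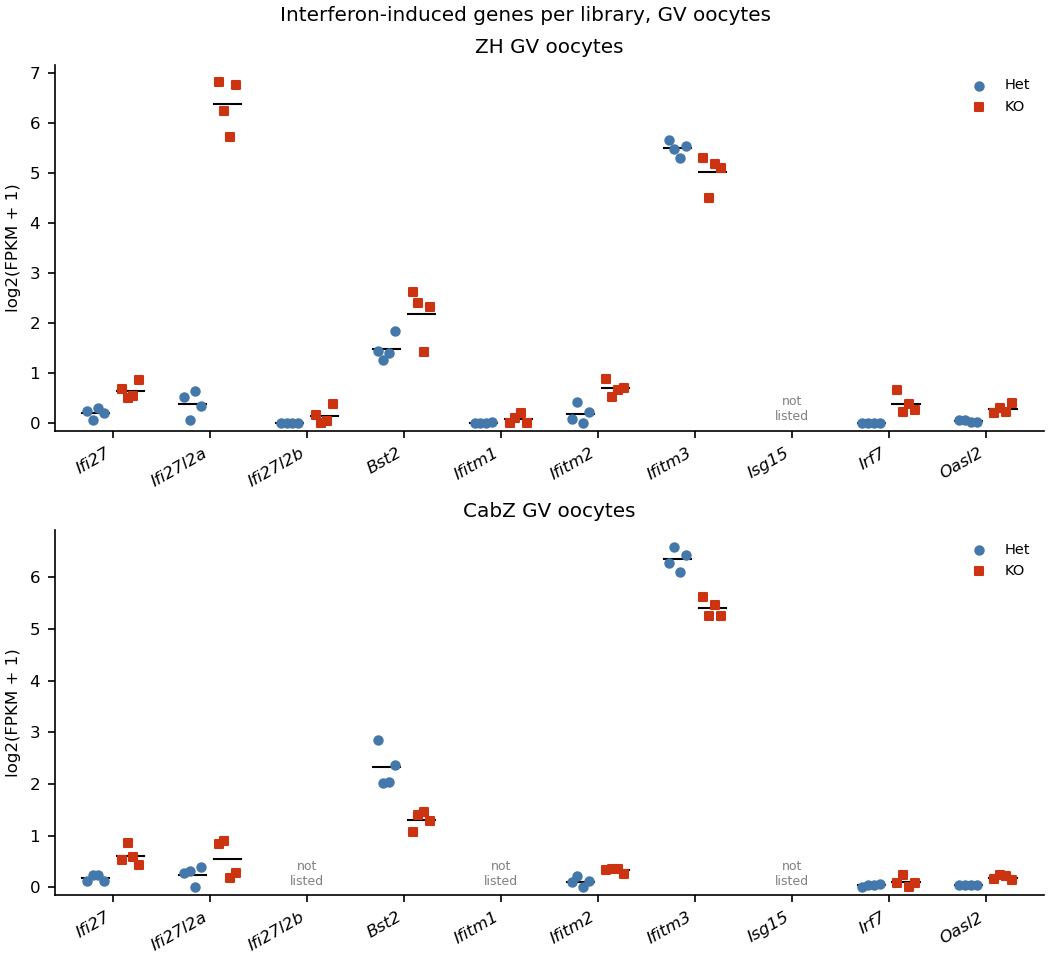
Level of each member in every GV oocyte library, as log2(FPKM + 1) on the y axis, for ZH (top) and CabZ (bottom), with circles for Het, squares for KO and a line at each group mean. Ifi27l2a stands apart in ZH KO (52.1 to 112 FPKM) and not in CabZ KO (0.138 to 0.864 FPKM), and Ifitm3 is lower in KO in both panels.

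CabZ KO oocytes, which lack another subunit of the complex, are a separate set of animals and libraries. The difference that chose the members came from ZH oocytes. Earlier results of these data were known at that choice, so the CabZ values are not an independent check of the set. In CabZ KO oocytes, Bst2 and Ifitm3 were lower, Oasl2 was higher at a low level, and Ifi27l2a did not pass the test. Called genes made up 2.9% of the CabZ GV table, and of the 2 members that passed the filter Bst2 was called. Of the 7 listed members, 3 were higher without overlap (10.5% of all listed genes) and 2 were lower without overlap (6.99% of all listed genes). The median difference of the listed members was 0.14, against 0.00 for all listed genes.

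Bst2 (chromosome 8, 71534255 to 71537456, minus strand) was at 6.21, 3.07, 3.10 and 4.17 FPKM in CabZ Het (109 to 248 reads) and at 1.09, 1.63, 1.73 and 1.44 FPKM in CabZ KO (35 to 53 reads). All KO libraries lay below all Het libraries, and the mean was 2.81-fold lower (4.14 ± 1.48 against 1.47 ± 0.281 FPKM, SD, n = 4 each). The difference was -1.02 ± 0.18 (log2, SE) with an adjusted p of 0.0058 in limma. Without Het 1 it was -0.84 and without KO 1 it was -0.94, under the fold change threshold, with adjusted p of 0.0087 and 0.014.

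Ifitm3 (chromosome 7, 141009586 to 141010770, minus strand) was at 76.7, 95.9, 68.0 and 85.3 FPKM in CabZ Het (894 to 1261 reads) and at 48.5, 37.3, 43.3 and 37.2 FPKM in CabZ KO (402 to 575 reads). The groups did not overlap, and the mean was 1.96-fold lower (81.5 ± 11.9 against 41.6 ± 5.40 FPKM, SD, n = 4 each). The difference of -0.95 ± 0.14 (log2, SE) had an adjusted p of 0.0018 and fell just short of the fold change threshold. Ifitm3 was the only member lower without overlap in both ZH and CabZ oocytes, a pattern found for 3.3% of the 18143 genes listed in both tables.

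Among the low members, Oasl2 (chromosome 5, 114896936 to 114912234, plus strand) was at 0.0262, 0.0294, 0.0236 and 0.0366 FPKM in CabZ Het (4 to 6 reads) and at 0.111, 0.171, 0.157 and 0.108 FPKM in CabZ KO (15 to 24 reads), 4.72-fold higher. Its adjusted p was 0.013 in a fit without the filter on low values, and between 0.0044 and 0.11 under the alternatives. Ifi27 was at 0.0798, 0.179, 0.179 and 0.0930 FPKM in CabZ Het (6 to 12 reads) and at 0.447, 0.814, 0.502 and 0.346 FPKM in CabZ KO (19 to 45 reads), 3.97-fold higher. Its adjusted p of 0.042 without the filter passed 0.05 in only 6 of 15 alternatives. Both genes were higher without overlap in ZH and in CabZ oocytes, as was Ifitm2, and 6.5% of the genes listed in both tables did so. For Ifitm2, the CabZ libraries held 0 to 2 reads in Het and 2 or 3 reads in KO, at or under the limit of 3 reads, so that no fold is given (adjusted p of 0.040 without the filter, 0.026 to 0.11 under the alternatives).

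Ifi27l2a was at 0.212, 0.238, 0 and 0.308 FPKM in CabZ Het (0 to 5 reads) and at 0.792, 0.864, 0.138 and 0.217 FPKM in CabZ KO (2 to 12 reads). The groups overlapped, and the difference of 0.31 had an adjusted p of 0.42 in the fit without the filter. The levels of this gene in ZH KO and CabZ KO oocytes come from tables normalised separately, and the difference between the lines was not tested. Irf7 had 0 to 2 reads in CabZ Het and 0 to 6 reads in CabZ KO. Ifi27l2b, Ifitm1 and Isg15 are not listed in this table.

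**Figure D3:**
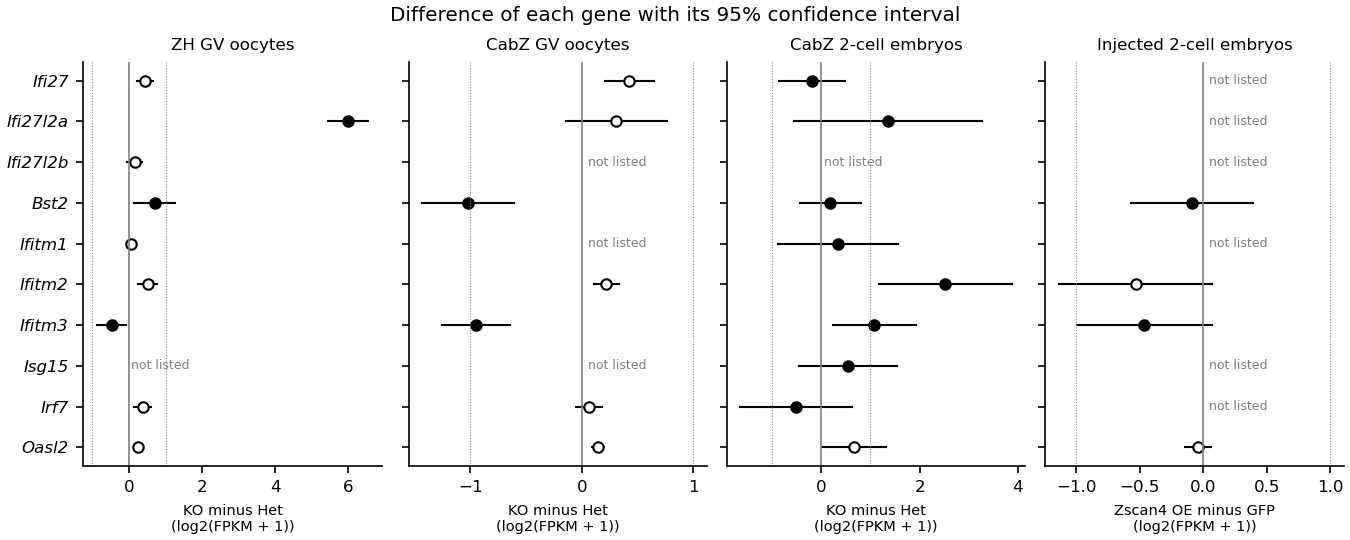
Difference of each member between the groups of each table, KO minus Het or Zscan4 OE minus GFP, on the log2(FPKM + 1) scale with its 95% confidence interval from limma (in the ZH panel a description only), and dotted lines at a fold change of 2. The Ifi27l2a difference of 6.00 in ZH oocytes lies far from every other, Bst2 and Ifitm3 lie below 0 in CabZ oocytes, and Ifitm2 and Ifitm3 lie above 0 in CabZ 2-cell embryos.

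Peaks of open chromatin at the member promoters were counted in CabZ GV oocytes. A peak summit within 500 bp of an annotated start site was found for 1, 0 and 2 of the 10 members in the Het libraries A, B and C and for 0, 0 and 1 in the KO libraries A, B and C. The libraries differed widely, with 43399, 67074 and 111327 peaks in Het and 46070, 19160 and 29600 in KO, and 9.29% to 31.2% of 21923 protein-coding genes had such a peak in Het against 4.43% to 12.9% in KO. The member counts lie near these shares, and nothing particular to the members is read from them. At Bst2, whose RNA was lower in KO, Het A had a peak (chr8:71537200-71539501, 6.69-fold enriched, -log10 q of 7.54) with its summit at -43 bp from the start site, and Het C had a peak (chr8:71535609-71537484, 4.69-fold enriched, -log10 q of 5.10) with its summit at 79 bp. The Het A peak covers the Bst2 stretch printed with its ISRE cores, and no KO library had a peak summit within 500 bp. At Ifitm2, Het C had a weak peak (2.93-fold enriched, -log10 q of 1.82), and at Oasl2, KO C had 2 weak peaks (4.43-fold and 4.92-fold enriched) at 2 different start sites. At Ifitm3 no library had a summit within 500 bp, and the nearest lay 907 bp away in Het B and 846 bp away in Het C. The background pileup of the KO libraries was lower (1.03 to 1.22 against 1.54 to 2.41 reads per position), so a missing KO peak cannot be told apart from lower depth, and no test was run on 3 libraries against 3.

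In CabZ 2-cell embryos, Ifitm2 and Ifitm3 were higher in KO, and Ifi27l2a, Isg15 and Oasl2 were highest in a single KO library. Called genes made up 37.4% of this table, the largest share of the 4 tables, and 2 of the 8 members that passed the filter were called, both higher. None of the 9 listed members had groups without overlap, where 19.2% of all listed genes were higher and 13.3% were lower without overlap. The median difference of the listed members was 0.54, against 0.02 for all listed genes.

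Ifitm2 (chromosome 7, 140954837 to 140955987, minus strand) was at 0, 0.328, 0.109 and 2.32 FPKM in CabZ Het embryos (0 to 22 reads) and at 13.98, 14.6, 1.51 and 8.06 FPKM in CabZ KO embryos (11 to 106 reads). KO 3 lay below Het 4 and the other 3 KO libraries lay above all Het libraries. The ratio of the means was 13.9 and rests on Het 4, which holds most of the Het reads. Without Het 4 the Het mean was 0.146 FPKM, under the limit of 3 reads per library, so no fold is given for it. The difference was 2.52 ± 0.60 (log2, SE) with an adjusted p of 0.0063, and 0.034 in the fit without the filter, which Ifitm2 passed only through the KO group. Ifitm3 was at 87.0, 44.1, 59.7 and 70.4 FPKM in Het and at 69.2, 219.8, 111 and 197 FPKM in KO, with KO 1 inside the Het range. Its mean was 2.29-fold higher (149 ± 71.2 against 65.3 ± 18.1 FPKM, SD, n = 4 each), a difference of 1.08 ± 0.38 with an adjusted p of 0.034. Leaving out Het 2, Het 3, Het 4, KO 2 or KO 4 moved this p to between 0.055 and 0.094 and the difference to between 0.85 and 1.13.

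The summed markers of leukocytes differed between these embryos, but not every gene of the list went the same way. Of a list of 10 such genes, 9 are listed in this table, and their summed level was 4.52 to 21.6 FPKM in Het and 14.3, 70.8, 48.7 and 209 FPKM in KO 1 to KO 4. In KO most of the sum came from Lyz2 (mean 53.4 against 0.403 FPKM in Het) and Cd68 (17.4 against 3.46 FPKM), and Lyz2 reached 164 FPKM in KO 4. Cd74 went the other way (2.56 in KO against 5.65 FPKM in Het) and was the largest part of the Het sum. Ptprc, the pan-leukocyte CD45 gene, stayed at or under 0.0223 FPKM, and Adgre1 and Tyrobp were at 0 in Het. The 2 KO libraries highest in this sum, KO 2 and KO 4, were also the 2 highest in Ifitm3, while KO 1, lowest in the sum, was second in Ifitm2. Without KO 2 and KO 4, left out for this sum after seeing the data, Ifitm2 differed by 2.04 (adjusted p of 0.061) and no member was called by limma (1, Ifitm2, at an unadjusted p under 0.05). Ifitm3 then differed by 0.46 (adjusted p of 0.30), but leaving out its 2 highest libraries had to lower this value, so nothing is read from it. The part of other cells in these results was not tested, and in these bulk libraries fewer cells of a type and less RNA per cell cannot be told apart. The summed oocyte markers were also higher in KO embryos (386 to 893 against 136 to 212 FPKM).

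Ifi27l2a was at 0, 0, 0.0828 and 0 FPKM in Het embryos (1 read in all) and at 0, 21.5, 0.417 and 0.454 FPKM in KO embryos (0, 204, 4 and 4 reads). A single KO library thus carried nearly all of its reads, and the difference of 1.36 ± 0.85 had an adjusted p of 0.20. Isg15 was at 0.180, 0.812, 0.180 and 0.870 FPKM in Het and at 0.245, 4.81, 0.793 and 0.616 FPKM in KO, with the same library, KO 2, at the top (adjusted p of 0.33). Oasl2 was at 0.222, 0.288, 0 and 0.135 FPKM in Het and at 0.246, 2.11, 0.929 and 0.539 FPKM in KO (adjusted p of 0.12 without the filter). For these 3 genes KO 2 was the highest of all 8 libraries.

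The remaining members did not pass the test in 2-cell embryos. Ifi27 was at 0.709, 2.40, 1.21 and 3.52 FPKM in Het and at 1.42, 1.72, 1.07 and 1.48 FPKM in KO, a difference of -0.19 with a 95% confidence interval of -0.86 to 0.47. Bst2 lay between 2.24 and 4.52 FPKM in Het and between 2.46 and 6.48 FPKM in KO (difference 0.18, adjusted p of 0.60). Ifitm1, a neighbour of Ifitm2 and Ifitm3 on chromosome 7, lay between 2.03 and 13.1 FPKM in Het and between 3.63 and 12.9 FPKM in KO (difference 0.34, adjusted p of 0.61). Irf7 lay between 0.200 and 5.00 FPKM in Het and between 0.137 and 2.87 FPKM in KO (difference -0.51, adjusted p of 0.42). The groups of all 4 genes overlapped widely. Per kilobase of exon, Het embryos held on average 114 CPM of Ifitm3, 16.8 of Ifitm1, 12.5 of Bst2 and 8.05 of Ifi27, and the libraries of the latter 3 genes overlapped on this scale.

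**Figure D4:**
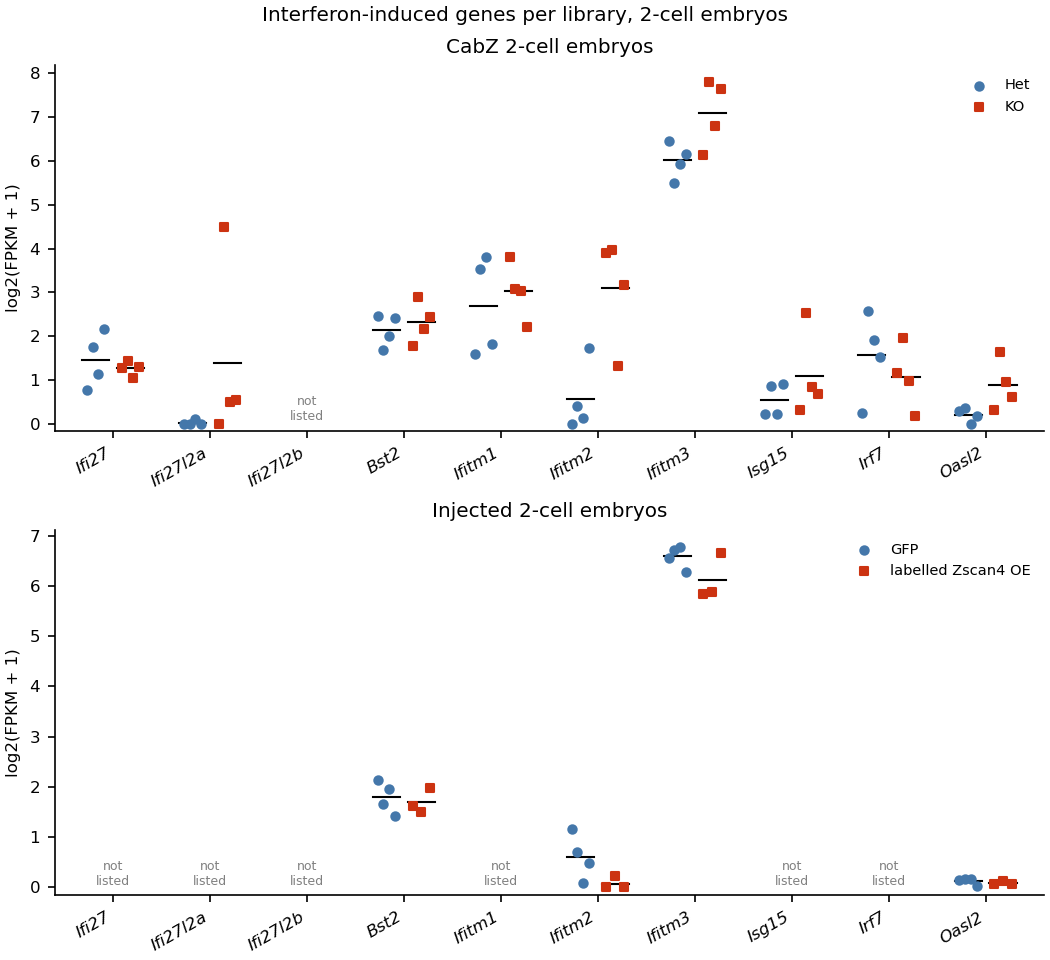
Level of each member in every 2-cell library, as log2(FPKM + 1) on the y axis, for CabZ (top) and the injected embryos (bottom), with circles for the control group, squares for the other group and a line at each group mean. Ifitm2 and Ifitm3 are higher on average in CabZ KO (9.55 against 0.689 and 149 against 65.3 FPKM), with overlapping groups.

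**Figure D5:**
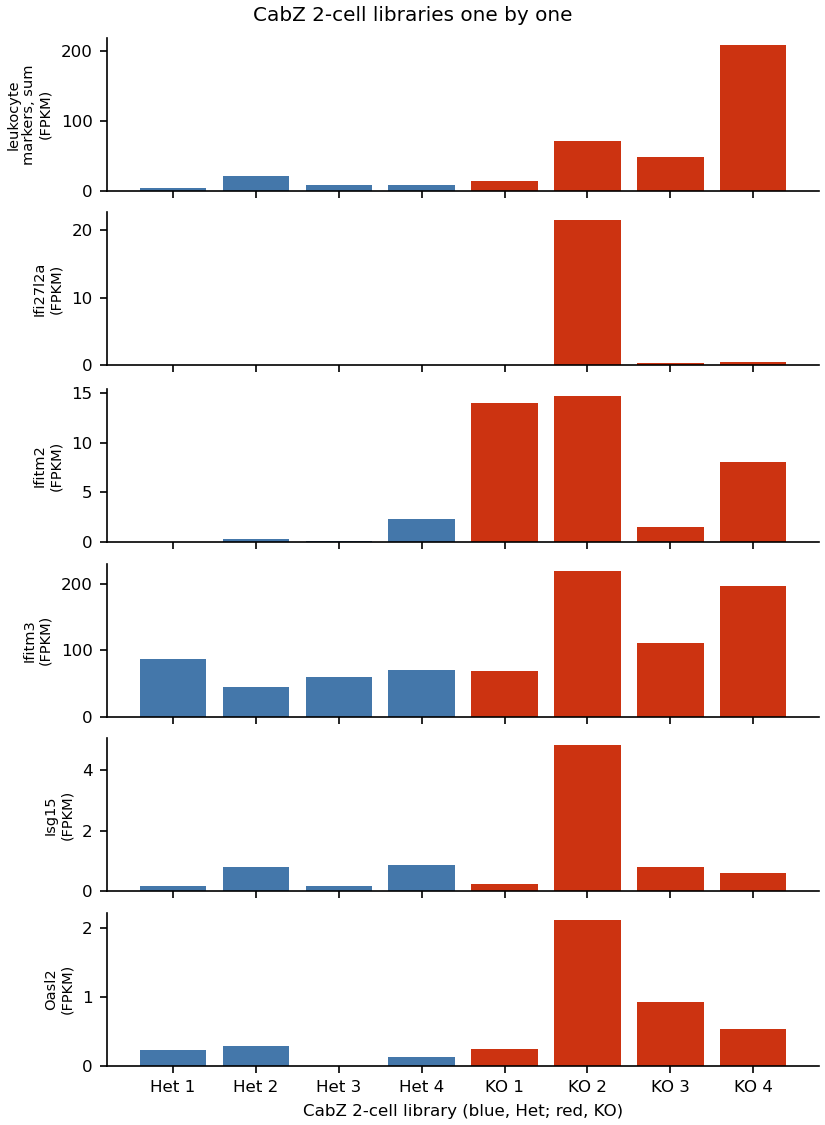
Summed leukocyte markers and 5 members in each of the 8 CabZ 2-cell libraries, in FPKM on separate y axes that start at 0, with blue bars for Het and red bars for KO. KO 2 holds the highest Ifi27l2a (21.5 FPKM), Isg15 (4.81 FPKM) and Oasl2 (2.11 FPKM), and KO 4 the highest marker sum (209 FPKM).

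In the injected embryos no listed member passed the test between the libraries labelled Zscan4 OE and the GFP libraries, where 1.44% of genes were called. Of the 2 that passed the filter, 0 were called by limma and 0 had an unadjusted p under 0.05. Ifitm3 was at 93.4, 104, 109 and 77.0 FPKM in the GFP libraries and at 56.5, 57.6 and 100 FPKM in the libraries labelled Zscan4 OE. The groups overlapped, since the highest library labelled Zscan4 OE lay above 2 of the 4 GFP libraries, and the difference was -0.46 with a 95% confidence interval of -0.99 to 0.07 (adjusted p of 0.30). Bst2 lay between 1.68 and 3.42 FPKM in the GFP libraries and between 1.84 and 2.96 FPKM in the others (difference -0.09, interval -0.57 to 0.39, adjusted p of 0.84). Ifitm2 had 47, 11, 1 and 7 reads in the GFP libraries and 0, 4 and 0 reads in the others (adjusted p of 0.44 without the filter). Oasl2 lay between 0.0220 and 0.121 FPKM in the GFP libraries and between 0.0490 and 0.0916 FPKM in the others (adjusted p of 0.77 without the filter). The other 6 members are not listed in this table. The summed leukocyte markers stayed at or under 1.76 FPKM in all 7 libraries.

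The rest of the interferon pathway was read from 7 lists of 175 genes, and the genes called went in both directions in each of the 3 KO tables. In ZH oocytes 130 of these genes are listed and 27 passed the filter, 4 of them called higher and 6 called lower (37.0% of those tested, against 17.7% of all genes). Those higher were the antigen-presenting molecule H2-K1 (1.44 ± 0.530 in Het against 10.2 ± 5.25 FPKM in KO, SD, n = 4 each), the proapoptotic Xaf1 (0.121 ± 0.0581 against 2.37 ± 0.672 FPKM), the cytokine signalling inhibitor Socs1 (4.95 ± 0.797 against 15.99 ± 10.5 FPKM) and the transcription factor Irf3 (2.08 ± 0.103 against 5.71 ± 1.88 FPKM). Those lower were Irf1 (21.7 ± 3.33 against 7.44 ± 2.94 FPKM), Ly6e, Parp12 and the oligoadenylate synthetase genes Oas1f, Oas1c and Oas1b, by 1.16 to 1.83 on the log2 scale. Xaf1 passed the filter only through the KO group, and Oas1b only through the Het group. None of the 20 interferon ligand genes passed the filter in any table. No sensor or adaptor gene was called by limma in any table. At an unadjusted p under 0.05 were 3 of 5 in CabZ oocytes, 3 of 5 in CabZ 2-cell embryos and 1 of 3 in the injected embryos. In CabZ oocytes Ddx58 (-0.70, adjusted p of 0.0017) and Mb21d1 (-0.48, adjusted p of 0.031) missed only the fold change threshold. So did Mb21d1 (0.74, adjusted p of 0.013), Samhd1 (0.69, adjusted p of 0.037) and Rnaseh2a (-0.94, adjusted p of 0.012) in CabZ 2-cell embryos.

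In CabZ GV oocytes 94 pathway genes are listed, 28 passed the filter, and 1 was called in each direction (7.14% of those tested, against 2.9% of all genes). H2-K1 rose from 0.961 ± 0.567 to 3.17 ± 1.46 FPKM (difference 1.08, adjusted p of 0.019) and Ly6e fell from 16.9 ± 2.16 to 5.97 ± 1.47 FPKM (difference -1.37, adjusted p of 0.00046). H2-K1 passed the filter only through the KO group. In CabZ 2-cell embryos 147 are listed and 42 passed, with 10 called higher and 3 called lower (31.0% of those tested, under the 37.4% of all genes), and the median difference of those that passed was 0.54 against -0.11 for all genes tested. Ifitm6, another gene of the Ifitm family, rose from 12.6 ± 6.08 to 72.0 ± 59.0 FPKM (difference 2.23, adjusted p of 0.0039). Oas1c, Oas1d, Oas1e and Oas1h rose by 1.12 to 1.56 (adjusted p of 0.0011 to 0.0026). All 4 were highest in KO 4, the library with the highest sum of oocyte markers (893 FPKM), and they stood at 77.6 to 240.2 FPKM in CabZ Het GV oocytes. The part of retained oocyte RNA in this rise was not tested. How reads shared by the similar Oas1 genes were counted is not given in the sources used here. The Oas1 calls here and in ZH oocytes thus cannot be taken as separate genes. Ifit3b (1.65, adjusted p of 0.033), Ly6e (1.53, adjusted p of 0.022) and Shisa5 (1.38, adjusted p of 0.00074) also rose. Of these, Ifit3b and Shisa5 passed the filter only through the KO group. Ifit3b stood at 3.76 ± 5.53 FPKM in KO, with 12.0 FPKM in KO 2, and the Ly6e groups overlapped. The immunoproteasome subunit Psmb10 (-1.91, adjusted p of 0.00047), Ifi35 (-2.09, adjusted p of 0.0003) and Socs1 (-1.03, adjusted p of 0.0064) were lower. Ifi35 passed the filter only through the Het group. In the injected embryos 83 are listed, 20 passed and none was called by limma (4 at an unadjusted p under 0.05), with Oas1d at 1.02 (adjusted p of 0.11) and, chosen after its values were seen, Cxcl10 at -1.45 (adjusted p of 0.15).

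In lists with no call, the gene with the highest mean is given, which does not stand for the whole list. Rnaseh2c, a subunit of an enzyme that removes RNA from DNA hybrids, was at 7.51 ± 1.67 FPKM in ZH Het and 3.74 ± 0.563 FPKM in ZH KO, and it differed by -0.06 in CabZ oocytes (adjusted p of 0.80) and by -1.07 in CabZ 2-cell embryos (adjusted p of 0.12). Ifitm6 was at 48.3 ± 9.92 FPKM in ZH Het and 44.3 ± 8.86 FPKM in ZH KO, and differed by 0.12 in CabZ oocytes (adjusted p of 0.61) and by -0.11 in the injected embryos (adjusted p of 0.76). In CabZ oocytes Socs1 differed by -0.33 (adjusted p of 0.29), Irf1 by -0.11 (adjusted p of 0.75) and Oas1d by -0.03 (adjusted p of 0.90). All 6 tested genes of the ISG15 and OAS list were lower there. Of these, Oas1f (-0.78, adjusted p of 0.0012), Oas1b (-0.60, 0.011) and Oas1e (-0.41, 0.031) missed only the fold change threshold. So did Il10rb (-0.63, 0.013) and Irf3 (0.64, 0.0060) of other lists. In CabZ 2-cell embryos Irf1 differed by 0.17 (adjusted p of 0.63), whereas Irf3 (-0.63, 0.027) and Irf2bp1 (-0.64, 0.021) missed only that threshold. In the injected embryos Jak2 differed by 0.24 (adjusted p of 0.46), Ddx58 by 0.28 (adjusted p of 0.34) and Ly6e by 0.30 (adjusted p of 0.45).

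The genes most alike Ifi27l2a across oocyte libraries were ranked by the lower of the Pearson correlations over the 8 ZH and the 8 CabZ GV libraries, among 5332 genes. Mepce (0.95 and 0.90), the chemokine gene Ccl11 (0.99 and 0.89), Hook2 (0.88 and 0.89), Arpc1a (0.91 and 0.86) and Gm19554 (0.97 and 0.84) came highest. Each set of 8 libraries contains both genotypes, so the correlations carry the difference between them and are given as a description. Ccl11 was at 0.356 ± 0.0427 FPKM in ZH Het and 8.38 ± 2.26 FPKM in ZH KO, and at 0.735 ± 0.142 FPKM in CabZ Het and 1.36 ± 0.354 FPKM in CabZ KO (SD, n = 4 each).

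Markers of somatic cells differed with genotype in ZH oocytes, in both directions. The summed leukocyte markers, 7 of 10 listed, were 1.22 to 1.58 FPKM in ZH Het and 2.37 to 5.45 FPKM in ZH KO, mostly Cd68 (mean 1.31 against 3.94 FPKM), and Ptprc was at 0 in Het and at most 0.00966 FPKM in KO. The summed granulosa and cumulus markers were 0.451 to 0.774 FPKM in Het and 1.07 to 2.56 FPKM in KO. Most of this rise came from Inha (mean 0.135 against 1.20 FPKM), whereas Foxl2 and Cyp19a1 were not higher in KO. The summed endothelial markers were lower in KO (0.0682 to 0.193 FPKM) than in Het (0.225 to 0.283 FPKM). The part of somatic cells in the ZH values was not tested. In CabZ oocytes the leukocyte sums were 0.967 to 3.09 FPKM in Het and 1.64 to 2.18 FPKM in KO, overlapping ranges, beside the lower Bst2 and Ifitm3.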

How the data were processed

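Reads were, per the methods, trimmed with TrimGalore, aligned to GRCm38/mm10 with STAR and turned into FPKM over RefSeq genes in Partek Flow by the authors. The deposited ZH and injected-embryo tables hold FPKM per gene span plus a constant, and the table minimum was subtracted. The deposited CabZ tables hold a score, reads divided by the span a second time and scaled to a fixed sum per library. It was turned back into FPKM by multiplying by the span and dividing by the library's sum of value times squared span. The planned test on FPKM could thus be kept. CabZ values are therefore scaled to reads on genes, and ZH values to a larger total. Reads on genes made up 74.2% to 74.7% of that total in ZH Het and 66.0% to 68.2% in ZH KO. Reads per gene were estimated from the value steps, of which 70.3% to 86.9% of low values per library came out whole, too few for a count test, and they serve only to show depth. For ATAC-seq the deposited peak files, called per library with MACS2, give a fold enrichment (ratio), a score and -log10 p and q.

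Differences were fitted on log2(FPKM + 1) with limma 3.58.1 in R 4.3.3, separately in each table since tables were normalised separately, for genes whose mean over the libraries reached 1 FPKM, with Benjamini-Hochberg adjustment over all genes tested. Members under the filter were read from a fit without it. A fold change on this scale understates the change of low genes. Limits for a count of 0 were set at 3 reads per library and cover counting error only. Scripts were tested on simulated data. Values were handled in Python 3.11.15.

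Members, pathway lists (ligands, receptors and signalling, sensors and adaptors, other Irf genes, other Ifitm genes, ISG15 and OAS pathway, other interferon-induced genes) and marker lists (oocyte, granulosa and cumulus, leukocyte, red cell, endothelial) were chosen with earlier results of these data known. All members were named, and of each list the called genes, at most 5, or otherwise the gene with the highest mean. Red cell markers (2 of 5 listed) summed to 144 to 234 FPKM in CabZ Het and 79.7 to 286 FPKM in CabZ KO 2-cell embryos and to at most 10.8 FPKM elsewhere, and endothelial markers to at most 0.293 FPKM anywhere. Alternatives covered the filter, the pseudocount, the scaling, the fold measure, the replicate block and each library left out.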

Additional observations from a re-analysis of the deposited data

Results flagged for a closer look

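Within groups of 4 libraries, 5 of 52 member groups had a library that stood apart from the other 3 by Dixon's 95% criterion, which chance meets in about 1 of 20 groups. Ifi27l2a reached 21.5 FPKM in CabZ KO 2-cell library 2, with the other 3 at 0.454 FPKM or less, and Isg15 reached 4.81 FPKM in the same library. In CabZ Het 2-cell embryos, Ifitm2 reached 2.32 FPKM in library 4 and Ifi27l2a 0.0828 FPKM in library 3, the latter from 1 read. Ifitm1 stood at 0.0189 FPKM in ZH Het library 4, also from 1 read, with the other 3 at 0.

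For Ifi27 and Ifitm3 the groups' means differed in one direction in oocytes and in the other in CabZ 2-cell embryos. The log2 difference of Ifi27 was 0.44 in ZH oocytes, 0.42 in CabZ oocytes and -0.19 in CabZ 2-cell embryos, where its interval of -0.86 to 0.47 holds 0 and median scaling turns it to 0.05, so no change of direction is shown. That of Ifitm3 was -0.48 in ZH oocytes, -0.95 in CabZ oocytes and 1.08 in CabZ 2-cell embryos. The tables were normalised separately, and these differences between stages were not tested.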

How the results depend on the processing

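Of 463 member values under an alternative, 414 kept their direction and side of the threshold or, in ZH oocytes, moved by less than the spread between libraries. The count of members meeting the rule for a call, a description in ZH oocytes, moved there from 1 to 2 with a ratio of means as the fold and 3 with no fold threshold. In CabZ oocytes it moved from 1 to 0 with a minimum of 5 FPKM or with values as deposited, where Bst2 was not tested, and to 2 with no fold threshold, and leaving out a library gave 0 to 2. In CabZ 2-cell embryos it moved from 2 to 1 with no filter, with values as deposited or with the replicate block, and leaving out a library gave 1 to 2. Without KO 2 and 4 together it was 0. Members with an ATAC-seq promoter peak went from 3 to 1 at -log10 q of at least 5 and to 5 within 2000 bp. Directions that reversed, none of them of a called gene, were Bst2 in CabZ 2-cell embryos (-0.01 to 0.36 with a library left out, -0.16 without KO 2 and 4), Ifi27 there (0.05 with median scaling, -0.42 to 0.04 with a library left out), Ifitm1 there (-0.02 to 0.72 with a library left out), and in the injected embryos Bst2 (0.01 with median scaling, -0.23 to 0.03 with a library left out) and Oasl2 (0.06 with median scaling). The cause was not tested.

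The labels do not say whether replicate numbers pair the libraries, and the main fit used no pairing. Deviations of same-numbered libraries correlated between -0.41 and 0.40, which cannot decide this. With the replicate block Ifitm3 in CabZ 2-cell embryos had an adjusted p of 0.067, and calls in the injected embryos fell from 62 to 2. No filter left 5 calls there, and leaving out single libraries 18 to 100. Values as deposited gave 10 calls in CabZ oocytes and 308 in CabZ 2-cell embryos, with 726 and 871 genes tested. Calls in ZH and CabZ oocytes rose from 1023 and 184 to 1677 and 354 with a ratio of means and to 3006 and 883 with no fold threshold. Median scaling moved the share of higher calls from 59.2% to 42.9% in ZH oocytes and from 45.3% to 60.9% in CabZ 2-cell embryos, and the median of all genes from -0.04 to -0.19 and from -0.11 to 0.13.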
